A study of Bos grunniens x Bos taurus and Bos grunniens with 6 samples.

Results

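The thioredoxin, glutathione and peroxidase genes make up the enzymes that a cell uses to remove peroxides and superoxide and to keep its thiols reduced. They were chosen by gene symbol, not by their values. The symbols were those of the thioredoxins and thioredoxin domain proteins, thioredoxin reductases, peroxiredoxins, glutathione peroxidases, soluble and microsomal glutathione S-transferases and superoxide dismutases, with CAT, GSR, GCLC, GCLM, GSS, SRXN1, NQO1, HMOX1 and HMOX2. Of the 18918 genes in the table, 64 carried such a symbol, under 58 different symbols. The difference comes from 6 symbols, GSR, GSTM1, GSTP1, Gstt4, PRDX1 and PRDX6, which each stood on more than 1 gene. The sequences of these copies were not compared. Where copies are near-identical, their reads may have been split or lost in counting, so the values of these copies are uncertain.

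Testis RNA of 3 cattle-yak (TES5, TES6 and TES7) and 3 yak (Yak8, Yak9 and Yak10) was sequenced, with 1 library per animal. Cattle-yak were F1 males of a Jersey bull and a Gannan yak cow from Xiahe County, and the yaks were Gannan males from Linxia County. All animals were 4 years old, and none carried a transgene or received a treatment. Genotype and county coincided and cannot be told apart. The labels give castration as the source of every testis, whereas the methods of the study name euthanasia for the yaks, in which case the mode of collection coincided with the groups too. The question behind the comparison is how gene expression differs in the testis of cattle-yak, whose males are sterile, from that of the fertile yak.

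Peroxides in the testis are removed by parallel electron chains. In the thioredoxin chain, NADPH reduces thioredoxin reductase, thioredoxin and then peroxiredoxin. In the glutathione chain, NADPH acts through glutathione reductase, and reduced glutathione serves the peroxidases and transferases. Developing sperm use several members of their own, among them the sperm thioredoxins, thioredoxin-glutathione reductase and GPX4, which also becomes a structural protein of the sperm midpiece.

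The values are FPKM, fragments divided by gene length and library depth, so that levels of different genes can be compared per length. Behind them stood 11175092 to 11834978 fragments on genes in cattle-yak and 12991631 to 13136119 in yak, and 1 fragment on 1 kb was worth 0.0761 to 0.0895 FPKM. Genes with a mean of at least 0.5 FPKM, 15042 in all, entered a two-sided limma fit of log2 (FPKM + 1). Calls needed an adjusted p under 0.05 (Benjamini-Hochberg) and a log2 fold change beyond 1, and every fold change below is that of cattle-yak over yak on this scale. Levels are given as mean ± SD of 3 animals, and log2 fold changes, also where they stand alone in brackets, ± SE. Of the 64 genes 60 were tested, and GPX2, GPX5, GPX6 and a copy of GSTP1 were too low.

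Tissue markers set the frame for every value below, since a bulk testis sample mixes cells. All 5 tested round spermatid markers were called lower in cattle-yak, with a summed level of 22.4 to 65.0 FPKM against 986 to 1052 in yak, and so were 7 of 7 elongating spermatid markers, with 15.8 to 78.7 against 9193 to 11331 FPKM. All 12 tested Sertoli markers were called higher, with 2491 to 2655 against 507 to 571 FPKM, as were 8 of 8 Leydig genes (10468 to 12471 against 3352 to 4889 FPKM), 6 of 6 myoid genes (573 to 767 against 117 to 144 FPKM) and 7 of 8 spermatogonial genes (736 to 939 against 178 to 246 FPKM). No marker of these lists averaged 0 in either kind of animal. A symbol on more than 1 gene was counted once per gene. The 8 Leydig genes thus carried 6 symbols, with CYP17A1 repeated, and the 7 elongating spermatid genes 6, with OAZ3 repeated. CLU was repeated among the Sertoli genes, and the animals overlapped for 1 CYP17A1 gene. INSL3 alone averaged 11173 FPKM in cattle-yak and 3842 in yak, most of the Leydig sum. With the median-of-ratios scaling described below, 10 Sertoli and 6 Leydig genes were called higher, and INSL3 (0.94) was not among them. As deposited, 33.4% of all tested genes were called higher and 20.8% lower. Other lists were mixed. Of 9 spermatocyte genes 1 was called higher, 2 lower and 6 were not called. Of 6 macrophage genes 3 were called higher and 2 lower, and of 7 endothelial genes 4 and 1. From the RNA of such samples alone, fewer cells of a type and less RNA per cell cannot be told apart. Tissue sections in the study showed no round spermatids or sperm in cattle-yak tubules. Spermatogonia and spermatocytes were fewer there than in yak, while most spermatogonial genes were called higher here. The part of this make-up in the results below was not tested.

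On the scale of the deposited FPKM, though not when centred on Sertoli markers, most redox genes were higher in the cattle-yak testis, while a small group was far lower. Of the 60 tested, 37 (61.7%) were called higher, against 33.4% of all tested genes, and 10 (16.7%) were called lower, against 20.8% of all. The remaining 13 were not called, 5 of them with an adjusted p under 0.05 and a fold change within the threshold. The median log2 fold change was 1.22 for the 60 genes and 0.51 for all tested genes. All 3 cattle-yak were above all 3 yak for 42 of the 60 genes, which held for 53.9% of all tested genes, and below them for 11, which held for 30.2% of all. The groups overlapped for the other 7, where 84.1% of all tested genes did not.

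These directions depend on how the libraries are set on one scale, because FPKM is a share of each library. With size factors from the median of ratios, which bring the overall median to 0.01, 24 redox genes were called higher (17.7% of all genes) and 10 lower (27.7% of all genes). All 37 genes higher as deposited stayed above 0 under those factors. That is no separate result, since they were chosen beyond 1 and these factors lower every fold change by less than 1. Of the 37, 13 were no longer called, namely TXN (0.82), TXN2 (0.45), TXNDC11 (0.63), TXNDC12 (0.61), TXNDC17 (0.70), PRDX1 (0.94), PRDX4 (0.58), GSS (0.93), a GSTM1 gene (0.45), GSTP1 (0.88), CAT (0.86), HMOX1 (0.54) and NQO1 (0.51). When each library was centred on its 12 Sertoli markers, the overall median moved to -1.67, 0 redox genes were called higher (0.239% of all genes) and 28 were called lower (72.1% of all genes). On that scale 10 of the 37 remained above 0. All 37 lay above the median of all genes, which is no separate result, since this centring lowers every fold change by the same amount. The 10 lower genes were called lower under every alternative. Of the alternatives, the median of ratios and Sertoli centring could only move them further down.

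**Figure D1:**
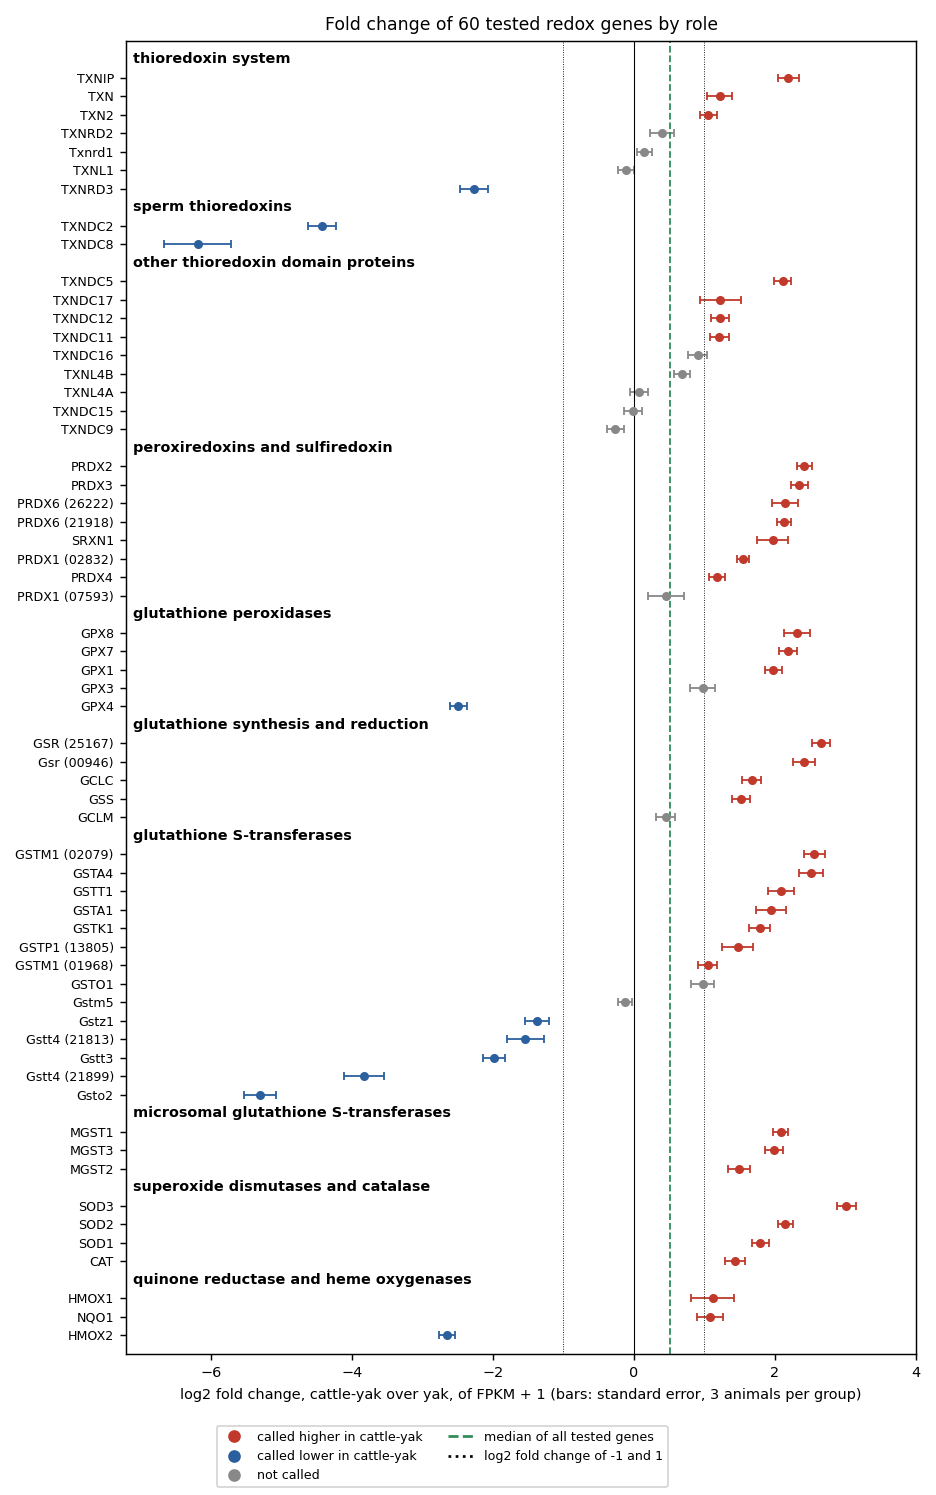
The horizontal axis gives the log2 fold change of FPKM + 1, cattle-yak over yak, for the 60 tested genes ordered by role, with points for the estimate, bars for its standard error (3 animals per group), a dashed line at the median of all tested genes (0.51) and dotted lines at the threshold. As deposited, 37 genes lie beyond 1 and 10 beyond -1, with TXNDC8 farthest to the left, but when centred on the Sertoli markers 27 of the 37 lie below 0.

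The thioredoxin system had 3 genes called higher, 1 called lower and 3 not called. Counts by role are small and stand beside 33.4% called higher and 20.8% called lower of all tested genes. TXN, the cytosolic thioredoxin, measured 3.08, 3.51 and 4.38 FPKM in TES5, TES6 and TES7 and 1.31, 0.859 and 0.828 FPKM in Yak8, Yak9 and Yak10. TXN was low in every animal, and the groups did not overlap. Its log2 fold change was 1.22 ± 0.18 (SE, adjusted p = 0.00025 in limma). TXN2, the mitochondrial thioredoxin, averaged 54.4 ± 7.78 FPKM in the 3 cattle-yak (SD, n = 3) and 25.5 ± 1.27 in the yaks, with a log2 fold change of 1.06. It is within the threshold under the median of ratios (0.45) and without TES6 (0.95). Per length, TXN2 was thus more abundant than TXN in every animal.

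TXNIP, the inhibitor that binds reduced thioredoxin, was among the most abundant genes of this system in cattle-yak. It measured 196, 185 and 243 FPKM in cattle-yak and 37.9, 45.1 and 51.1 FPKM in yak. Every cattle-yak value lay far above every yak value, with a log2 fold change of 2.19 ± 0.14 (SE, adjusted p = 2.7e-06). Under the median of ratios TXNIP stayed called (1.58), while TXN (0.82) and TXN2 (0.45) did not, and Sertoli centring gave 0.01, -0.96 and -1.12. TXNL1, a thioredoxin-like protein of the proteasome, was as abundant and was not called, with 199, 185 and 226 FPKM in cattle-yak and 201, 214 and 246 in yak. These values overlapped (log2 fold change -0.11 ± 0.12, adjusted p = 0.38), and quantile normalization turned the sign to 0.11. The median of ratios gave -0.73, and Sertoli centring gave -2.29, where TXNL1 was called lower.

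The 3 thioredoxin reductases, which pass electrons from NADPH to thioredoxin, did not move together. Txnrd1, the cytosolic enzyme, measured 23.2, 25.8 and 22.2 FPKM in cattle-yak and 22.5, 20.3 and 21.0 in yak. TXNRD2, the mitochondrial enzyme, measured 7.31, 10.7 and 10.9 FPKM in cattle-yak and 7.07, 6.36 and 7.47 in yak. Neither pair of groups separated, with log2 fold changes of 0.15 ± 0.11 (adjusted p = 0.22) for Txnrd1 and 0.40 ± 0.17 (adjusted p = 0.056) for TXNRD2, which turn to -0.44 and -0.15 under the median of ratios and to -2.03 and -1.78 under Sertoli centring.

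TXNRD3, the thioredoxin-glutathione reductase known for its high level in testis, measured 15.2, 14.3 and 9.12 FPKM in cattle-yak and 56.8, 75.0 and 62.6 FPKM in yak. All 3 yaks were well above all 3 cattle-yak, and the mean in yak was 5.04 times that in cattle-yak (log2 fold change -2.27 ± 0.19, adjusted p = 1.1e-05). TXNRD3 held 27.7% ± 5.84 of the summed FPKM of the 3 reductases in cattle-yak and 69.4% ± 4.05 in yak, while Txnrd1 held 51.4% ± 1.09 and 23.0% ± 3.04. Such shares within a library do not change when all its values are multiplied by the same factor. The reductase most abundant per length was therefore Txnrd1 in each cattle-yak and TXNRD3 in each yak.

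Both sperm thioredoxins, which developing spermatids make for the acrosome and the tail, were called lower and were among the genes with the largest differences. TXNDC8 measured 2.14, 0.523 and 0.168 FPKM in TES5, TES6 and TES7 and 164, 64.9 and 198 FPKM in Yak8, Yak9 and Yak10. It was low in every cattle-yak, with 17 fragments over the 3 animals against 2864 in yak, and Yak9 lay well below the other yaks. The log2 fold change was -6.19 ± 0.47 (SE, adjusted p = 6.1e-06), and the fragments per depth were 148.6 times higher in yak (95% exact interval 92.7 to 255, counting error only).

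TXNDC2 measured 0.266, 0 and 0 FPKM in cattle-yak and 29.0, 17.8 and 21.3 FPKM in yak. A single fragment in TES5 was all that cattle-yak gave, against 283 in yak. The ratio of yak to cattle-yak was 249.7 with an exact interval of 44.4 to 9895, which the 1 fragment leaves wide, and the log2 fold change was -4.42 ± 0.21 (adjusted p = 5.5e-07). The spermatid markers were lower in cattle-yak too. Among the cattle-yak, TES5 was highest for TXNDC8 and, by its 1 fragment, for TXNDC2. The round spermatid sum was 65.0 FPKM in TES5, 37.6 in TES6 and 22.4 in TES7, and a link with these genes was not tested. TES5 had the highest cattle-yak value for 8 of all 10 lower genes, and the lowest for 18 of the 37 higher genes. The same shares over all tested genes were not formed, so these counts have nothing to stand against.

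Of the other 9 thioredoxin domain genes, 4 were called higher, 0 lower and 5 not called, against 33.4% higher and 20.8% lower of all tested genes. TXNDC5, a disulfide isomerase of the endoplasmic reticulum, averaged 95.4 ± 10.7 FPKM in cattle-yak and 21.3 ± 2.32 in yak (log2 fold change 2.11 ± 0.12, adjusted p = 1.6e-06). TXNDC12, a small thioredoxin-like protein of the same compartment and the most abundant of the group in cattle-yak, measured 108, 109 and 110 FPKM there and 42.6, 56.4 and 40.9 FPKM in yak. The cattle-yak values were nearly equal and all above the yak values (log2 fold change 1.22 ± 0.13). TXNDC11 (1.21) and TXNDC17 (1.23) were called as well. Under the median of ratios TXNDC5 alone of the 4 stayed called, with TXNDC11 at 0.63, TXNDC12 at 0.61 and TXNDC17 at 0.70, and under Sertoli centring all 4 lay below 0, from -0.07 for TXNDC5 to -0.96 for TXNDC11. TXNDC17 rested on scattered animals, from 7.32 in TES6 to 15.9 FPKM in TES5, and was not called without TES5 (0.95) or, like TXNDC11 (0.99), under quantile normalization (0.96).

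Of the 5 not called, TXNDC16 (0.90 ± 0.14, adjusted p = 0.00035) and TXNL4B (0.68 ± 0.12, adjusted p = 0.00074) had an adjusted p under 0.05 and a fold change within the threshold. TXNDC16 was called with pseudocounts of 0.1 (1.13) and 0.01 (1.16), TPM scaling (1.01) and voom on fragments (1.16), and gave -1.27 under Sertoli centring. TXNDC9, a phosducin-like partner of the chaperonin and the most abundant of the group in yak, measured 47.4, 52.4 and 44.1 FPKM in cattle-yak and 52.1, 56.1 and 65.1 FPKM in yak. The lowest yak lay below the highest cattle-yak by a small margin (log2 fold change -0.26 ± 0.12, adjusted p = 0.067). TXNDC9 gave -0.87 under the median of ratios and was called lower under Sertoli centring (-2.44). TXNL4A, a component of the spliceosome, averaged 22.6 ± 1.76 and 21.5 ± 2.81 FPKM, with a log2 fold change of 0.07 that turns to -0.52 under the median of ratios, -0.09 under quantile normalization, -2.11 under Sertoli centring and -0.01 without Yak8. TXNDC15 averaged 14.8 ± 1.93 and 15.0 ± 0.789 FPKM, with a log2 fold change of -0.02 that turns above 0 under TPM scaling (0.0012), without TES5 (0.06) and without Yak9 (0.02). It gave -0.60 under the median of ratios and was called lower under Sertoli centring (-2.20).

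Peroxiredoxins, which reduce peroxides with electrons from thioredoxin, were higher in cattle-yak with 1 exception. Together with sulfiredoxin they summed to 1396 ± 63.9 FPKM in cattle-yak and 416 ± 7.14 in yak, and 7 of 8 genes were called higher. Of the 7, 5 stayed called under the median of ratios, where PRDX1 gave 0.94 and PRDX4 0.58, and under Sertoli centring PRDX2 (0.24) and PRDX3 (0.17) lay above 0 and the other 5 below. PRDX1, the abundant cytosolic form, measured 842, 904 and 911 FPKM in cattle-yak and 297, 311 and 296 FPKM in yak. The animals of each group were close to each other and the groups far apart (log2 fold change 1.55 ± 0.09, adjusted p = 1.2e-06). PRDX1 held 63.5% ± 0.809 of the family in cattle-yak and 72.3% ± 1.37 in yak.

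PRDX2, a cytosolic peroxiredoxin well known from red blood cells, had the largest log2 fold change of the family on the FPKM + 1 scale, which shrinks that of the low PRDX6 copy. It measured 103, 125 and 120 FPKM in cattle-yak and 21.7, 20.5 and 20.1 FPKM in yak (log2 fold change 2.42 ± 0.10, adjusted p = 4e-07). The groups were separated by a wide gap. Of 6 listed erythroid genes 3 were found. HBA measured 0.141 to 0.599 FPKM in cattle-yak and 0.300 to 0.667 in yak, and ALAS2 was at 0 in 5 animals and at 0.0414 FPKM in Yak9. HEMGN, the only one of them tested, was called lower, with a mean of 0.596 FPKM in cattle-yak and 156 in yak. So short a list cannot show how much blood RNA the samples held, and its part in PRDX2 was not tested.

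PRDX3, the mitochondrial peroxiredoxin, measured 75.6, 63.3 and 84.9 FPKM in cattle-yak and 14.2, 13.2 and 13.9 FPKM in yak. The yaks were almost equal and every cattle-yak was above them (log2 fold change 2.35 ± 0.12, adjusted p = 9.8e-07). PRDX6, which uses glutathione instead of thioredoxin, averaged 251 ± 19.1 and 56.3 ± 3.81 FPKM (2.14 ± 0.10), and PRDX4 of the endoplasmic reticulum averaged 46.1 ± 4.73 and 19.8 ± 1.65 FPKM (1.18 ± 0.12). SRXN1, which repairs over-oxidized peroxiredoxins, averaged 16.5 ± 3.92 and 3.45 ± 0.987 FPKM (1.97 ± 0.22). The low copies were uncertain: that of PRDX6 gave 145 fragments in cattle-yak against 9 in yak, a ratio of 18.3 (exact interval 9.36 to 40.7), and that of PRDX1 34 against 21 fragments, with overlapping animals (0.46 ± 0.25, adjusted p = 0.13).

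Of the 8 glutathione peroxidases, 3 were called higher as deposited, 1 lower, 1 was not called and 3 were not tested. Among all tested genes 33.4% were called higher and 20.8% lower. The family as a whole summed to 1112, 1025 and 1030 FPKM in cattle-yak and 2697, 3067 and 2978 FPKM in yak, because GPX4 alone made up nearly all of it in yak. GPX4, a selenoenzyme that reduces lipid hydroperoxides and becomes part of the sperm midpiece, measured 565, 438 and 481 FPKM in cattle-yak and 2577, 2916 and 2831 FPKM in yak. All yaks were far above all cattle-yak, by 5.61 times in the mean (log2 fold change -2.49 ± 0.12, adjusted p = 6.6e-07). In the cattle-yak testis GPX4 still came right behind Gstm5, PRDX1 and GPX1 in level per length.

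GPX1, the cytosolic enzyme found in most cells, measured 498, 533 and 483 FPKM in cattle-yak and 109, 138 and 137 FPKM in yak. Cattle-yak were higher in every animal (log2 fold change 1.98 ± 0.12, adjusted p = 1.5e-06, but -0.20 under Sertoli centring). In cattle-yak GPX1 and GPX4 therefore stood side by side, with 47.9% ± 3.68 and 46.7% ± 4.05 of the family. In yak they held 4.37% ± 0.299 and 95.2% ± 0.28.

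**Figure D2:**
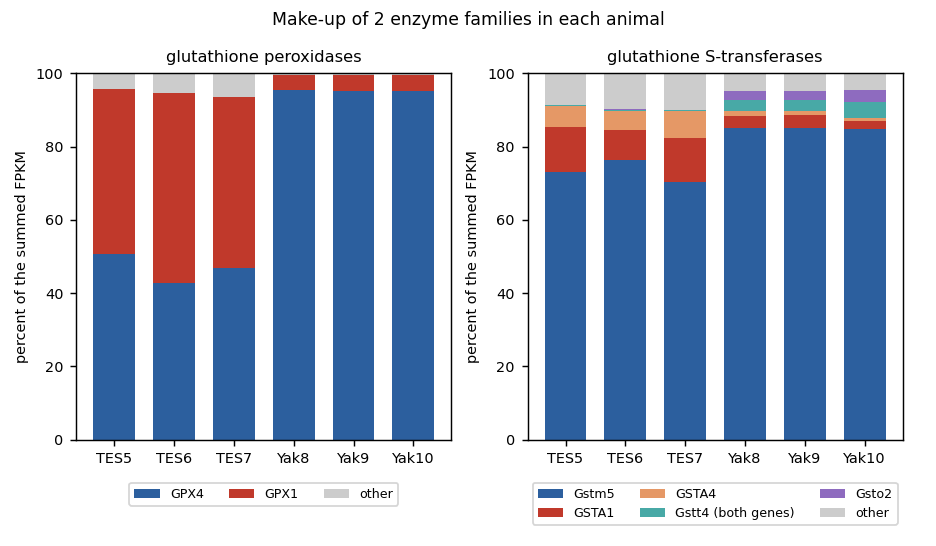
Stacked bars give each gene's percent of the summed FPKM of its family in each of the 6 animals, for the glutathione peroxidases (left) and the glutathione S-transferases (right). GPX4 fills 95.0% to 95.5% of the peroxidases in the yaks and 42.7% to 50.8% in the cattle-yak, while Gstm5 is the main transferase in all animals.

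GPX7 and GPX8, peroxidases of the endoplasmic reticulum that take part in protein folding, were called higher. GPX8 measured 24.4, 29.5 and 37.2 FPKM in cattle-yak and 5.44, 6.18 and 4.28 FPKM in yak. The groups did not overlap (log2 fold change 2.31 ± 0.18, adjusted p = 7.7e-06), and GPX7 averaged 17.6 ± 1.68 against 3.07 ± 0.234 FPKM (2.18 ± 0.13). Both stayed above 0 under Sertoli centring (0.13 and 0.01). GPX3, the secreted plasma form, averaged 7.62 ± 1.42 against 3.37 ± 0.680 FPKM and was not called (0.98 ± 0.18, adjusted p = 0.0011), but it was called with pseudocounts of 0.1 (1.15) and 0.01 (1.18), TPM scaling (1.07), voom (1.18), and without TES5 (1.01), TES6 (1.07) or Yak9 (1.09). Sertoli centring gave -1.20.

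The other 3 peroxidases were at the edge of detection and were not tested. GPX2, the form of the gut, gave 2 fragments in cattle-yak and 4 in yak, all 4 of them in Yak9. GPX5, the form secreted by the epididymis, gave 9, 4 and 0 fragments in TES5, TES6 and TES7 and 1, 0 and 1 in the yaks. Of 10 epididymal gene rows, 4 were at 0 in every yak, and Lcn5, Lcn10, LCN8 and CRISP1, which were those 4, averaged 0.309 to 1.16 FPKM in cattle-yak. The whole list summed to 407 to 702 FPKM in cattle-yak and 93.5 to 119 in yak, nearly all of it from an EPPIN gene, and 3 of its 6 tested genes were called higher. Its part in the GPX5 fragments was not tested. GPX6, known from the olfactory lining, gave 13 fragments in cattle-yak and 3 in yak, where 3 counts is also the floor used here.

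Genes that make and recycle glutathione were higher, with 4 of 5 called. GSR, glutathione reductase, measured 50.5, 55.6 and 42.7 FPKM in cattle-yak and 6.86, 6.61 and 7.45 FPKM in yak. The yaks were closely grouped far below the lowest cattle-yak (log2 fold change 2.66 ± 0.13, adjusted p = 6e-07). Its copy Gsr measured 5.15, 4.97 and 4.25 FPKM in cattle-yak and 0.205, 0.0684 and 0 FPKM in yak. It was all but missing in yak, with 4 fragments against 185 and a ratio of 52.4 (exact interval 20.1 to 194), and its log2 fold change was 2.41 ± 0.16 (adjusted p = 2.6e-06). Reads were mapped to the yak genome, and the sequences of these copies were not compared, so the division between them is uncertain.

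GCLC, the catalytic subunit of the enzyme that makes the first step of glutathione synthesis, averaged 13.4 ± 1.65 FPKM in cattle-yak and 3.51 ± 0.117 in yak (1.67 ± 0.14, adjusted p = 8.9e-06). Its modifier subunit GCLM was the most abundant of the group in yak, with 23.5, 22.9 and 31.2 FPKM in cattle-yak and 19.3, 17.1 and 19.2 FPKM in yak. The GCLM groups did not overlap, but the log2 fold change of 0.45 ± 0.14 (adjusted p = 0.016) was within the threshold and turned to -0.14 under the median of ratios. GSS, which completes the tripeptide, averaged 34.2 ± 3.57 and 11.3 ± 1.24 FPKM (1.52 ± 0.13). Under Sertoli centring GSR (0.48) and Gsr (0.23) stayed above 0, while GCLC (-0.51), GSS (-0.66) and GCLM (-1.73) did not.

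The 15 soluble glutathione S-transferases couple glutathione to reactive compounds. Of the 14 tested, 7 were called higher, 5 lower and 2 were not called, against 33.4% higher and 20.8% lower of all tested genes. The summed level was 2446 ± 74.1 FPKM in cattle-yak and 2300 ± 35.7 in yak. Most of that sum was Gstm5, a mu-class enzyme whose gene description in the table reads as mu 3, so that its exact identity is uncertain. Gstm5 measured 1726, 1897 and 1754 FPKM in cattle-yak and 1929, 1990 and 1945 FPKM in yak. The lowest yak lay just above the highest cattle-yak, and the difference was not called (-0.13 ± 0.10, adjusted p = 0.26). It was -0.74 under the median of ratios and -2.30 under Sertoli centring, where Gstm5 was called lower. Gstm5 held 73.3% ± 3.03 of the transferases in cattle-yak and 85.0% ± 0.205 in yak.

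All alpha, pi and kappa genes tested, GSTT1 and both GSTM1 copies were the 7 called higher. GSTA4, an alpha-class enzyme that removes products of lipid peroxidation, measured 133, 128 and 182 FPKM in cattle-yak and 29.6, 22.9 and 22.3 FPKM in yak. TES7 was the highest, and every cattle-yak was above every yak (log2 fold change 2.51 ± 0.17, adjusted p = 2.8e-06). The GSTM1 gene with the larger change (ENSBGRG00000002079) measured 42.9, 47.3 and 59.9 FPKM in cattle-yak and 7.34, 8.55 and 6.92 FPKM in yak. It separated the groups by a wide gap (2.56 ± 0.15, adjusted p = 1.5e-06). Its copy (ENSBGRG00000001968) averaged 38.5 ± 5.82 and 18.0 ± 1.73 FPKM (1.05 ± 0.14), and was not called under the median of ratios (0.45), quantile normalization (0.95), or without TES7 (0.94) or Yak9 (0.97).

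GSTA1 averaged 265 ± 53.4 FPKM in cattle-yak and 68.5 ± 16.8 in yak (1.95 ± 0.21). GSTP1 averaged 51.3 ± 16.2 and 17.4 ± 2.88 FPKM (1.47 ± 0.22), GSTK1 36.5 ± 6.09 and 9.84 ± 1.19 FPKM (1.78 ± 0.15), and GSTT1 38.9 ± 3.29 and 8.55 ± 2.32 FPKM (2.09 ± 0.18). The other GSTP1 gene gave 5 fragments in cattle-yak and 0 in yak and was not tested. Under Sertoli centring GSTA4 (0.33) and the first GSTM1 gene (0.38) stayed above 0 and the other 5 of the 7 did not.

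The 5 lower transferases came from the omega, theta and zeta classes. Gsto2, an omega-class enzyme that reduces dehydroascorbate, measured 1.27, 0.311 and 0.400 FPKM in cattle-yak and 59.0, 55.6 and 74.5 FPKM in yak. Cattle-yak were close to 0, with 20 fragments against 2130 and a ratio of 93.95 (exact interval 60.7 to 154), and the log2 fold change was -5.30 ± 0.23 (adjusted p = 4e-07). Its relative GSTO1 averaged 3.91 ± 0.737 FPKM in cattle-yak and 1.48 ± 0.156 in yak. GSTO1 was not called at 0.98 ± 0.16 (adjusted p = 0.00058), but was called with pseudocounts of 0.1 (1.33) and 0.01 (1.39), TPM scaling (1.13), voom (1.39), and without TES6 (1.02), TES7 (1.06) or Yak8 (1.03), and gave -1.20 under Sertoli centring.

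Of the theta class, the Gstt4 gene with the larger change (ENSBGRG00000021899) measured 5.40, 5.10 and 2.04 FPKM in cattle-yak and 60.9, 64.2 and 83.8 FPKM in yak. The yaks were higher without overlap (-3.83 ± 0.28, adjusted p = 5.1e-06). Gstt3 measured 5.31, 3.86 and 4.00 FPKM in cattle-yak and 17.3, 23.0 and 20.7 FPKM in yak. It also kept the groups apart (-1.99 ± 0.16, adjusted p = 8.4e-06), as did the other Gstt4 gene (2.68 ± 1.02 against 9.68 ± 2.87 FPKM, -1.54 ± 0.26). Gstz1, which acts in tyrosine breakdown, averaged 9.74 ± 2.56 and 26.4 ± 1.06 FPKM (-1.38 ± 0.17). GSTT1 of the same theta class went the other way.

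The 3 microsomal transferases, which sit in membranes and also reduce lipid peroxides, were all called higher as deposited and all below 0 under Sertoli centring. MGST1 measured 433, 414 and 489 FPKM in cattle-yak and 111, 94.3 and 107 FPKM in yak. The groups lay far apart (log2 fold change 2.08 ± 0.11, adjusted p = 8.1e-07, and -0.10 under Sertoli centring). MGST2, which also makes leukotriene, averaged 7.85 ± 0.412 and 2.16 ± 0.423 FPKM (1.49 ± 0.15), and MGST3 57.7 ± 8.41 and 13.6 ± 0.822 FPKM (1.99 ± 0.13).

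The superoxide dismutases, which turn superoxide into hydrogen peroxide, and catalase, which degrades it, were all called higher. SOD3, the secreted enzyme bound to the extracellular matrix, had the largest log2 fold change upward on the FPKM + 1 scale, which shrinks those of the low Gsr and PRDX6 copies. It measured 41.8, 46.4 and 34.8 FPKM in cattle-yak and 4.34, 3.93 and 4.21 FPKM in yak. The yaks were nearly equal and the cattle-yak 9.85 times higher in the mean (log2 fold change 3.02 ± 0.13, adjusted p = 4.6e-07). On the same scale with Sertoli centring SOD3 gave 0.84, whereas SOD1 (-0.38), SOD2 (-0.03) and CAT (-0.74) lay below 0.

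SOD1, the abundant cytosolic enzyme, measured 367, 366 and 464 FPKM in cattle-yak and 112, 106 and 123 FPKM in yak. TES7 was above the other cattle-yak, and all 3 were above the yaks (1.79 ± 0.12, adjusted p = 3.1e-06). SOD2, the mitochondrial enzyme, averaged 59.4 ± 1.71 and 12.6 ± 0.969 FPKM (2.15 ± 0.10), and CAT of the peroxisome 26.6 ± 3.56 and 9.21 ± 1.16 FPKM (1.43 ± 0.14). Within a library, the SOD3 to SOD1 ratio was 0.114, 0.127 and 0.0750 in cattle-yak and 0.0388, 0.0369 and 0.0342 in yak.

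The heme oxygenases, which degrade heme, moved in opposite directions. HMOX2, the constitutive form, measured 39.7, 35.9 and 33.5 FPKM in cattle-yak and 248, 206 and 248 FPKM in yak. Yaks were 6.43 times higher in the mean with no overlap (log2 fold change -2.65 ± 0.11, adjusted p = 3.9e-07). HMOX1, the inducible form, measured 18.2, 32.7 and 25.9 FPKM in cattle-yak and 8.79, 18.0 and 8.19 FPKM in yak. The highest yak, Yak9, came close to the lowest cattle-yak, TES5, and the call (1.12 ± 0.31, adjusted p = 0.0089) is lost under the median of ratios (0.54, adjusted p = 0.15), under quantile normalization (0.93), and without TES6 (0.93), Yak8 (0.97) or Yak10 (0.93). NQO1, a quinone reductase, averaged 19.8 ± 4.28 and 8.78 ± 1.41 FPKM (1.08 ± 0.18, adjusted p = 0.00059). NQO1 was not called under the median of ratios (0.51), quantile normalization (0.83) or without TES6 (0.93), and both it and HMOX1 lay below 0 under Sertoli centring (-1.10 and -1.06).

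**Figure D3:**
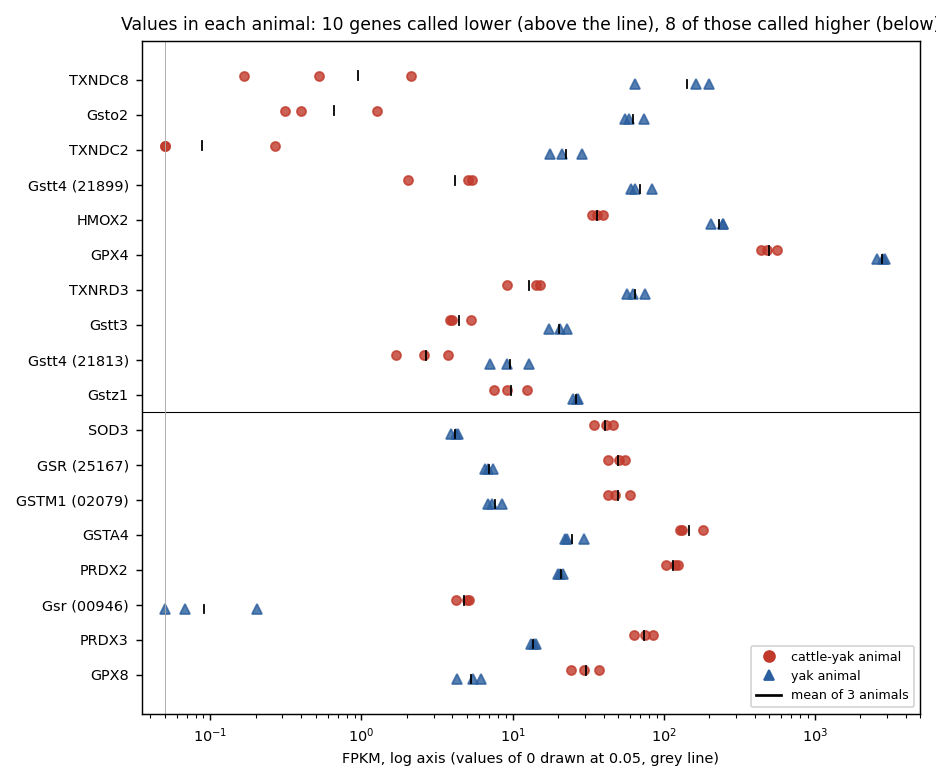
Each row gives the FPKM of 1 gene on a log axis in the 3 cattle-yak (circles) and the 3 yaks (triangles), with black ticks at the means of 3 animals and values of 0 drawn at 0.05, for the 10 genes called lower and the 8 called higher with the largest fold change. The groups do not overlap in any of the 18 rows as deposited, which follows in part from choosing the rows by call and fold change. Of all tested genes 84.1% do not overlap. TXNDC2 is at 0 in TES6 and TES7.

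Ratios of related genes within a library cancel its scale and set the lower genes against a relative. They were formed after the values had been seen, so they are given without a test. The GPX4 to GPX1 ratio was 1.13, 0.821 and 0.997 in TES5, TES6 and TES7 and 23.7, 21.2 and 20.7 in Yak8, Yak9 and Yak10. The yak ratio was 22.4 times that of cattle-yak (geometric means), with no overlap.

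The Gsto2 to GSTO1 ratio was 0.268, 0.0863 and 0.118 in cattle-yak and 35.6, 39.3 and 54.4 in yak, so the more abundant omega enzyme was GSTO1 in cattle-yak and Gsto2 in yak. The HMOX2 to HMOX1 ratio was 2.18, 1.10 and 1.30 in cattle-yak and 28.2, 11.4 and 30.3 in yak. HMOX2 led in all 6 animals, by far less in cattle-yak. The TXNRD3 to Txnrd1 ratio was 0.655, 0.555 and 0.410 in cattle-yak and 2.53, 3.70 and 2.97 in yak, which places the change of the leading reductase inside each library. The ratio of the Gstt4 gene with the larger change to GSTT1 likewise crossed 1, with 0.0486 to 0.153 in the cattle-yak animals and 5.55 to 10.1 in the yaks.

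**Figure D4:**
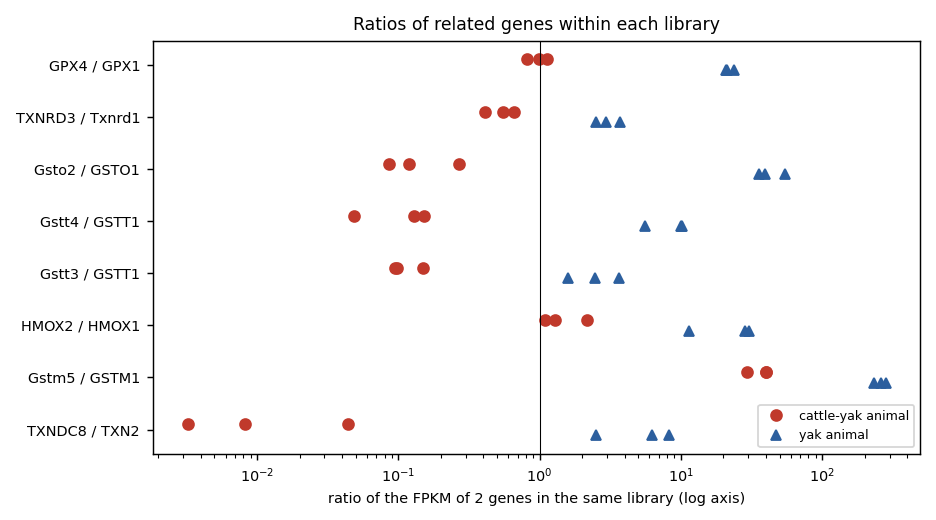
The log axis gives the ratio of the FPKM of 2 related genes in the same library, for 3 cattle-yak (circles) and 3 yaks (triangles), with a line at 1. Circles and triangles do not overlap in any pair, and GPX4 over GPX1 lies at 0.821 to 1.13 for the circles and at 20.7 to 23.7 for the triangles.

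The summed level of all 64 genes was 7032 ± 206 FPKM in cattle-yak and 6938 ± 226 in yak as deposited, but with median-of-ratios factors it was 5633 ± 152 and 8542 ± 399, which is 1.52 times higher in yak. Its make-up differed between the groups. The 10 lower genes held 8.07% ± 1.18 of this sum in cattle-yak and 49.4% ± 0.912 in yak, and the 37 higher genes 60.6% ± 1.52 and 16.7% ± 0.425. These shares follow in part from the calls and carry no test. GPX4 alone held 7.05% ± 1.06 in cattle-yak and 40.0% ± 1.47 in yak, while the other 9 lower genes together held 1.03% ± 0.142 and 9.42% ± 1.49. Gstm5, at 25.5% ± 1.47 and 28.2% ± 0.757, was the largest gene of the sum in cattle-yak and the next after GPX4 in yak.

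**Figure D5:**
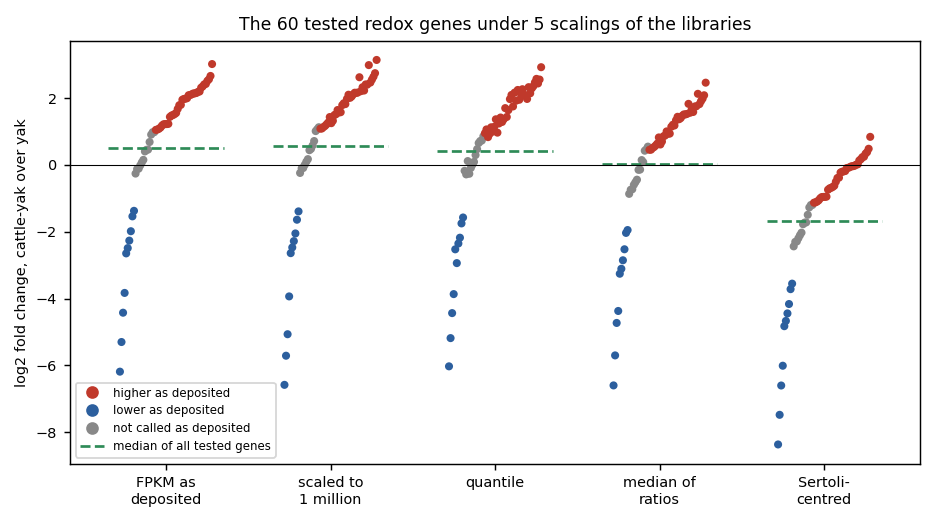
The vertical axis gives the log2 fold change, cattle-yak over yak, of the 60 tested genes under 5 scalings of the libraries (horizontal axis), coloured by their call as deposited, with a dashed line at the median of all tested genes. The 10 lower genes stay at the bottom throughout, while the 37 higher genes lie above the dashed line in each, and under Sertoli centring 27 of them lie below 0. These positions follow in part from choosing the genes by their call as deposited. Sertoli centring shifts all genes and the dashed line alike, so their order there is that of the deposited values.

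Genes around the redox enzymes gave counts of their own, from lists by role. Beside them stand the shares of all tested genes, 33.4% called higher and 20.8% called lower. For the supply of NADPH all 8 tested genes were called higher, also under the median of ratios, led by TKT of the pentose phosphate pathway (231 ± 24.5 against 40.8 ± 2.78 FPKM, log2 fold change 2.47). Of 10 genes of the NRF2 regulator and its partners, 5 (50%) were called higher and 2 (20%) lower, the latter share near that of all genes. NFE2L2, which is NRF2 and drives many antioxidant genes, measured 52.3, 53.1 and 46.0 FPKM in cattle-yak and 10.3, 10.3 and 9.77 FPKM in yak. It was far higher in every cattle-yak (2.21 ± 0.10, adjusted p = 5.8e-07), and 0.03 under Sertoli centring. NFE2L3 had the largest fold change of this list (2.27), and the adaptor KEAP1 (-1.51) and its ubiquitin ligase partner Cul3 (-1.60), which keep NRF2 low, were the 2 called lower. BACH1, a repressor of NRF2 targets, was called higher as well (1.35, adjusted p = 4.2e-05), as were NFE2L1 (1.62) and MAFK (1.63).

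Of 8 glutaredoxins and methionine sulfoxide reductases, 4 (50%) were called higher, with GLRX leading (2.38), and 1 (12.5%) lower, the mitochondrial glutaredoxin GLRX2 (36.1 ± 4.72 against 224 ± 23.8 FPKM, -2.61). Of 19 genes for disulfide formation in the secretory pathway, 9 (47.4%) were called higher, led by a PDIA6 gene (2.43), and 1 (5.26%) lower. That gene was PDILT, a testis isomerase of spermatids, with 0.876, 0.670 and 0.496 FPKM in cattle-yak and 145, 130 and 173 FPKM in yak. The groups lay even farther apart than those of TXNDC8 (-6.48 ± 0.15, adjusted p = 5.7e-08). In a short list of other testis genes of the thioredoxin family, 2 of 4 were called lower, PDILT and NME8 (-3.03), and 2 higher, NME9 (1.08) and TMX2 (1.02).

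Of 14 genes for the precursors and breakdown of glutathione, 6 (42.9%) were called higher and 4 (28.6%) lower, from GGCT (2.34) to OPLAH (-3.52). Of 21 genes for selenoproteins and their synthesis, 10 (47.6%) were called higher and 3 (14.3%) lower, from SELENOO (2.30) to a SEPHS2 gene (-2.02), which makes the selenium donor that GPX4 and the thioredoxin reductases need. Of 7 NADPH oxidase genes, which make superoxide, CYBB was called higher (1.15), NCF4 lower (-2.91) and 5 were not called. Most of the genes called higher in these lists turned below 0 under Sertoli centring, where 3 of 8 for NADPH supply, 2 of 5 for NRF2, 1 of 4 for glutaredoxins, 1 of 9 for disulfide formation, 1 of 6 for glutathione precursors, 1 of 10 for selenoproteins and 0 of 1 for the oxidases lay above 0. The medians of the lists on that scale ran from -1.78 for the precursors to -0.20 for NADPH supply, against -1.67 for all genes.

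Terms in the table's annotation regroup the same redox genes with the same calls, so their counts are no separate result. Only some of the terms are given here. Of all tested genes 33.4% were called higher and 20.8% lower, and the counts for all genes of a term include its redox genes. Of the 7 redox genes annotated to spermatogenesis, GPX4, TXNDC2, TXNDC8 and TXNRD3 were called lower and Gsr, PRDX4 and SOD1 higher, with a median of -2.27. Among all 289 tested genes with that term, 131 were called lower and 56 higher, with a median of -0.71. Of 16 tested redox genes annotated to the response to oxidative stress, 11 were called higher and 1 lower, and of all 58 tested genes with that term 31 and 7.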

How the data were processed

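Testis RNA of 3 cattle-yak and 3 yak was measured, with 1 library per animal. As the methods of the study state, the authors used Trimmomatic for trimming, mapped the reads of both groups with HISAT2 to the yak genome LU_Bosgru_v3.0, calculated FPKM with Cufflinks and counted reads with HTSeq (versions not given in the sources used here). The deposited FPKM values are per gene length and library depth and are not scaled between libraries. In the hybrid, reads of cattle alleles that map less well to the yak genome would lower a value, which was not tested.

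Whole fragments, and with them depths and gene lengths, were recovered from the FPKM steps of 17973 genes, with 100% of values within 0.03 of a whole number. Intervals on fragments cover counting error only. Since the test of the study needs counts, log2 (FPKM + 1) of 15042 genes with a mean of at least 0.5 FPKM was fitted with limma 3.58.1 in R 4.3.3 (variance trend, two-sided), with Benjamini-Hochberg adjustment over all of them. Fold changes on this scale understate those of low genes. The scripts were tested on simulated data. Animals are separate individuals, named as in the labels, and each of the 6 entered every main fit.

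All genes of the symbol rule are accounted for. Values in each animal were given for the 8 called genes with the largest fold change in each direction and for the most abundant gene of each role in each kind of animal, with some others added after their values were seen. Members and lists were chosen with earlier results of these data known. Alternatives were pseudocounts of 0.1 and 0.01, no filter and a mean of at least 5 FPKM, scaling by Sertoli markers, by quantiles, to TPM or by the median of ratios, a robust prior or no trend in limma, voom on the recovered fragments, no fold threshold, and each animal left out. Python 3.11.15, numpy 2.4.6, pandas 2.3.3, scipy 1.17.1 and matplotlib 3.10.9 were used. Sequences and gene positions were not used here.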

Additional observations from a re-analysis of the deposited data

How the results depend on the processing

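No paired analysis was possible because the labels give the animals of the groups no shared numbers. The 10 lower genes were called lower under every alternative, while the higher genes depended on the scale of the libraries. Of the alternatives, median-of-ratios and Sertoli-centred scaling could only lower the 10 genes further. Of the 60 genes 37 were called higher as deposited, but 24 under median-of-ratios scaling and 0 under Sertoli-centred scaling, which called 28 lower. Their median of 1.22 became 1.37 and 1.41 with pseudocounts of 0.1 and 0.01, 1.41 with voom on the recovered fragments, 1.13 with quantile normalization, 0.67 with median-of-ratios scaling and -0.96 with Sertoli-centred scaling. Of all tested genes 5023 were called higher and 3136 lower as deposited, 2655 and 4173 under median-of-ratios scaling, and 36 and 10849 under Sertoli-centred scaling. Without a fold threshold 7916 were called higher, as that limit was removed. Leaving out 1 animal in turn gave 36 to 37 higher and 10 to 10 lower redox genes, a median of 1.18 to 1.30, and 4904 to 5133 higher and 3076 to 3192 lower of all genes.

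By construction, Sertoli-centred scaling lowers every fold change by the same amount, and it turned the sign of SOD2 (-0.027), both PRDX6 genes (-0.043 and -0.040), TXNDC5 (-0.068), GSTT1 (-0.090), MGST1 (-0.10), MGST3 (-0.18), GPX1 (-0.20), SRXN1 (-0.21), GSTA1 (-0.23), SOD1 (-0.38), GSTK1 (-0.39), GCLC (-0.51), both PRDX1 genes (-0.63 and -1.72), GSS (-0.66), MGST2 (-0.69), GSTP1 (-0.70), CAT (-0.74), TXNDC17 (-0.95), TXNDC12 (-0.96), TXN (-0.96), TXNDC11 (-0.96), PRDX4 (-1.0), HMOX1 (-1.06), NQO1 (-1.10), TXN2 (-1.12), a GSTM1 gene (-1.13), GSTO1 (-1.20), GPX3 (-1.20), TXNDC16 (-1.27), TXNL4B (-1.50), GCLM (-1.73), TXNRD2 (-1.78), Txnrd1 (-2.03) and TXNL4A (-2.11). Without a change of sign, Sertoli-centred scaling also called Gstm5 (-2.30), TXNDC9 (-2.44), TXNDC15 (-2.20) and TXNL1 (-2.29) lower, which were not called as deposited. Median-of-ratios scaling turned GCLM (-0.14), TXNL4A (-0.52), Txnrd1 (-0.44) and TXNRD2 (-0.15), quantile normalization TXNL4A (-0.092) and TXNL1 (0.11), and TPM scaling TXNDC15 (0.0012). Leaving out 1 animal gave TXNDC15 values from -0.11 to 0.061, above 0 without TES5 or Yak9 (0.018), and TXNL4A values from -0.011 to 0.17, below 0 without Yak8. None of these smaller reversals involved a called gene, and their causes were not tested. With 3 animals per group, an exact test of a single value cannot go below 0.1, and depth limits GPX2, GPX5, GPX6 and a GSTP1 gene to a few fragments.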
